A study of Arabidopsis thaliana with 12 samples.

Results

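The enzymes that carry sulfate to cysteine in Arabidopsis were followed at the transcript level in 2 natural accessions. The set was taken by locus and holds 10 genes of the 28549 with a count in these data. It covers the 4 ATP sulfurylases (ATPS1 to ATPS4), the 3 adenosine 5′-phosphosulfate (APS) reductases (APR1 to APR3), the single sulfite reductase (SIR), and the serine acetyltransferases SERAT2;1 and SERAT2;2. All 10 genes were detected in every library, with between 244 and 37429 estimated counts. RNA-seq was done on whole rosettes aged 3 weeks of the wild-type accessions Cvi-0 (Cvi) and Shahdara (Sha), both of which the study treats as ozone (O3) sensitive. The groups were Cvi in O3 and Cvi in clean air (CA), and Sha in O3 and Sha in CA, each with 3 replicate libraries of 4 pooled rosettes. O3 was given at 350 nL L-1 for 2 h, and CA was ambient air with its usual low O3 content for the same time. A pool gives 1 value for all cells of a rosette, so a change can come from fewer cells of a type or from less RNA per cell, and these cannot be told apart.

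Plants take up sulfate and activate it with ATP sulfurylase, which makes APS. APS reductase then reduces APS to sulfite in the plastid and is regarded as the main control point of the pathway, and sulfite reductase makes sulfide. Serine acetyltransferase supplies O-acetylserine, the carbon skeleton that takes up sulfide to form cysteine, from which glutathione is built. APS can also be phosphorylated to PAPS, the donor for sulfation of compounds such as the glucosinolates of Brassicaceae. In sulfur-starved plants miR395 acts on ATP sulfurylase transcripts and on the transporter SULTR2;1. Sha is known to carry a nearly inactive form of the APR2 enzyme. Transcript counts do not report enzyme activity.

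Total estimated counts were between 21699862 and 33571953 in Cvi libraries and between 10794686 and 27895667 in Sha libraries. The 4 rosette leaf markers (RBCS1A, LHCB1.3, LHCB2.1 and CA1) were abundant in every library, and the 3 guard cell markers were present. Summed leaf marker levels were 14364 to 17707 CPM in Cvi in O3 and 35300.1 to 38476 CPM in Cvi in CA, and 5649 to 14237 CPM in Sha in O3 against 23479 to 34786 CPM in Sha in CA. CPM are counts scaled to 1000000 per library, with library sizes adjusted by TMM normalisation. Each of the 4 leaf markers was lower in every O3 library than in the CA libraries of the same accession, and the part of this in the results below was not tested. Of the 4 root markers, PYK10 was present at 9.71 to 98.9 CPM while COBL9, RHD6 and IRT1 were at or near 0. The 3 flower markers summed to at most 0.557 CPM in Cvi and 8.58 CPM in Sha, and the seed markers to at most 0.218 CPM. Replicate 2 of Sha stood apart in both treatments. Its leaf marker sum was the lowest of its group in O3 and in CA, although LHCB2.1 in CA was the highest, at 3930 CPM. The root marker sum of replicate 2, nearly all PYK10, was also lowest, at 9.89 CPM in O3 and 22.6 CPM in CA. Its flower marker sum was the highest of its group, at 5.01 CPM in O3 and 8.58 CPM in CA. The TMM factor of replicate 2 in O3 was 1.25, against 1.05 and 1.08 in the other Sha O3 libraries. The member results that it moved most are also given without both of its libraries, a choice made after the data had been seen.

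Regulatory sequences were read from the RefSeq copy of the TAIR10.1 assembly of Col-0, so they show the sequence of that accession and not of Sha or Cvi. The first set is shown because the ATPS genes differ in their miR395 sites. The 6 annotated mature miR395 sequences lie on chromosome 1 and fall into a pair of variants that share the seed, bases 2 to 8, given in capitals.
miR395a, miR395d and miR395e: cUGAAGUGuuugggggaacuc
miR395b, miR395c and miR395f: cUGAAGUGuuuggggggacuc
The best match to a mature miR395 was then searched in the longest annotated transcript of each member, counting G:U pairs as mismatches. In the sites found, capitals mark bases that pair with miR395a in the Watson-Crick manner.
ATPS1 at chr3:8113164-8113184 (+): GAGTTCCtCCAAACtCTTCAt
ATPS3 at chr4:8414958-8414978 (-): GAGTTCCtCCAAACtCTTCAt
ATPS4 at chr5:17591121-17591141 (-): GAGTTCCtCCAAACACTTCAt
SULTR2;1 at chr5:3193268-3193288 (+): aAGTTCtCCCAAACACTTCAa
All 4 sites lie in coding sequence. ATPS1, ATPS3 and SULTR2;1 had 3 mismatches and ATPS4 had 2. The best match in ATPS2 had 8 mismatches, and no member outside ATPS1, ATPS3 and ATPS4 had a match within the limit of 5 mismatches. Over all 27444 protein-coding genes, 84 (0.306%) had a match within that limit.

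The second set is shown because APR2 responded in the opposite direction to APR3, and APR1 differed between the accessions. It gives the 250 bases before the annotated start of each APR gene, a stretch that holds no annotated exon of another gene. Capitals mark the W-box form TTGACT, a motif bound by WRKY factors.
APR1 promoter at chr4:2324628-2324877 (+): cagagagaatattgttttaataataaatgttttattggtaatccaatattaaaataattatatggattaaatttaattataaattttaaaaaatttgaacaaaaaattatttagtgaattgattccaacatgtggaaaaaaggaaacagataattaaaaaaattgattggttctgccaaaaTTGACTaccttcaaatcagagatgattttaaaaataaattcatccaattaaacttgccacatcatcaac
APR2 promoter at chr1:22977886-22978135 (-): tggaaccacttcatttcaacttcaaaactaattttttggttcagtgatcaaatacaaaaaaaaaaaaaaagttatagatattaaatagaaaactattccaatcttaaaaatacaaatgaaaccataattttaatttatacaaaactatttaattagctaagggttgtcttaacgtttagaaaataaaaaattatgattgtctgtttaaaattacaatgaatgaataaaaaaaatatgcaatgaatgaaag
APR3 promoter at chr4:11659168-11659417 (-): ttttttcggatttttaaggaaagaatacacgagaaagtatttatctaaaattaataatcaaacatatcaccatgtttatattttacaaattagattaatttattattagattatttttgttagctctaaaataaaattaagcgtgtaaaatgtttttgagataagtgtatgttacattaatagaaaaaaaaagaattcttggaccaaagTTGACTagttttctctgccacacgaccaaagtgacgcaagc
On both strands, 4 motifs were searched in the 10 promoters, namely the W-box forms TTGACC and TTGACT, the G-box CACGTG and GAGAC, the core of the sulfur-responsive element. TTGACT was found once in APR1, beginning 69 bases before the gene start, and once in APR3, beginning 41 bases before it, and not in this window of APR2. TTGACC was found in ATPS3 only, at 3 positions. CACGTG and GAGAC were in none of the 10 windows. Of all 27443 promoters of this length, 19.1% held TTGACT, 12.2% TTGACC, 6.49% CACGTG and 25.8% GAGAC. These matches are descriptions of the Col-0 sequence and no binding was measured.

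The first question was which of these enzymes responded to O3. In Cvi, APR1, APR3 and SERAT2;1 rose and APR2, ATPS2 and SIR fell. In Sha, APR3 and SERAT2;1 rose and APR2, ATPS2 and ATPS3 fell. A gene is called here when edgeR placed its change beyond 1.2-fold at a false discovery rate of at most 0.05 over all 28549 genes. By that rule 6 of 10 members were called in Cvi and 5 of 10 in Sha, against 47.5% of all genes in Cvi and 34.5% in Sha. By direction, 3 rose and 3 fell in Cvi, where 24.3% of all genes rose and 23.2% fell. In Sha 2 rose and 3 fell, where 17.9% of all genes rose and 16.6% fell. With 10 members these shares lie near the background. The shares of all genes here and below include genes with few counts, and are lower than those among genes that pass a filter on low counts. After that filter, 6609 of 21321 genes rose and 5911 fell in Cvi, and 5624 rose and 4369 fell in Sha. The members called were then again 6 in Cvi and 5 in Sha. The median log2 fold change of the 10 members was 0.05 in Cvi and -0.11 in Sha, against 0.0 over all genes in each. Under the likelihood-ratio test with a minimum log2 change of 1.2 the members called numbered 2 in Cvi and 0 in Sha. APR2 and APR3 were those called in Cvi. Of all 28549 genes, that test called 3773 up and 1551 down in Cvi, and 2075 up and 880 down in Sha.

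APR3 (AT4G21990, chr4:11657008-11659167, TAIR10.1) had the largest increase among the members. This plastid APS reductase had 577, 603 and 520.1 CPM in Cvi in O3, against 107, 107 and 124 CPM in Cvi in CA. In Sha it had 383, 296 and 341 CPM in O3, against 134, 145 and 119 CPM in CA. The O3 and CA libraries did not overlap in either accession, and every Cvi O3 library was above every Sha O3 library. APR3 rose 5.03-fold in Cvi (log2 2.33 ± 0.17 SE, edgeR adjusted p = 1.08e-30) and 2.56-fold in Sha (log2 1.36 ± 0.17 SE, edgeR adjusted p = 3e-10). Without replicate 2 of Sha the log2 fold change in Sha was 1.60.

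APR2 (AT1G62180, chr1:22975530-22977885), the isoform known to give most of the APS reductase activity of leaves in Col-0, went the other way. It had 100.4, 69.6 and 70.1 CPM in Cvi in O3, against 366, 291 and 271 CPM in Cvi in CA. The Sha libraries had 376, 259 and 270.3 CPM in O3, against 715, 515 and 574 CPM in CA. The O3 libraries were below the CA libraries in each accession without overlap, and the values of Sha in O3 overlapped those of Cvi in CA. APR2 fell by 1.95 on the log2 scale in Cvi (SE 0.23, edgeR adjusted p = 3.83e-13), a 3.87-fold decrease. It fell by 0.99 in Sha (SE 0.23, edgeR adjusted p = 0.000711), a 1.99-fold decrease. On the opposite strand APR2 shares 782 bases with AT1G08477, which was not among the genes tested, and 225 bases with AT1G62170, which had at most 0.248 CPM.

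APR1 (AT4G04610, chr4:2324878-2327064), a further plastid APS reductase, behaved differently in the accessions. It had 378, 479 and 375 CPM in Cvi in O3, against 237, 251 and 212 CPM in Cvi in CA. Sha rosettes gave 271, 220.4 and 287 CPM in O3, against 273, 374 and 270.4 CPM in CA. The O3 libraries were all above the CA libraries in Cvi, and in Sha the treatments overlapped. APR1 rose 1.76-fold in Cvi (log2 0.82 ± 0.20 SE, edgeR adjusted p = 0.00166). In Sha the log2 fold change was -0.24 ± 0.20 (SE, edgeR adjusted p = 0.516), with a 95% interval of -0.63 to 0.15, and it was 0.11 without replicate 2.

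**Figure D1:**
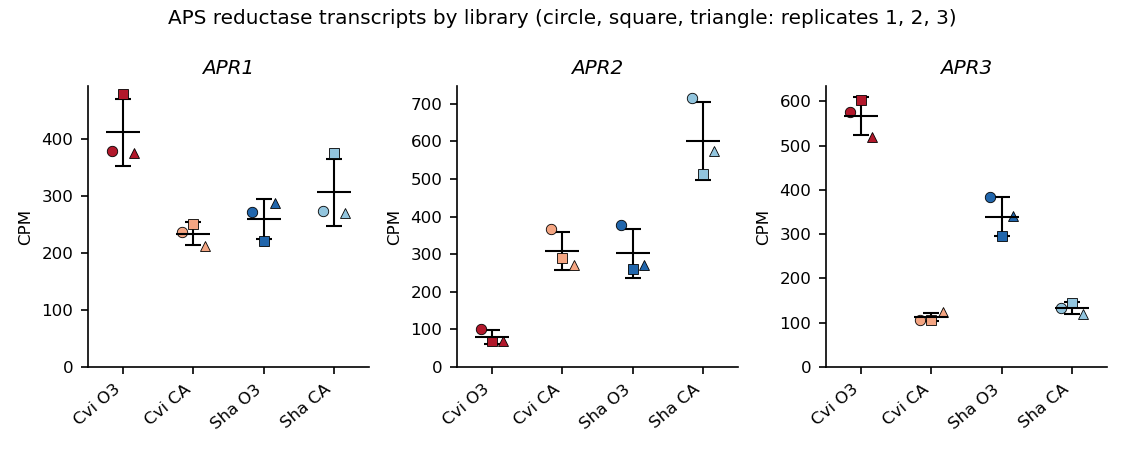
CPM of APR1, APR2 and APR3 (vertical axes, each from 0) in the 12 libraries by group (horizontal axes), with symbols for the 3 replicates and a line and bar for the mean and SD of each group. APR3 was higher and APR2 lower in O3 than in CA in both accessions without overlap, while APR1 was higher in O3 in Cvi and overlapped in Sha.

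The make-up of the APS reductase transcript pool differed between the treatments. Shares were taken from CPM per kb of the longest annotated transcript, so that isoforms of different length can be compared, and carry no test. APR3 made up 55.9 ± 1.199% of the APR transcript in Cvi in O3 and 19.0 ± 2.96% in Cvi in CA, and 40.4 ± 0.470% in Sha in O3 and 14.2 ± 1.17% in Sha in CA (SD, n = 3). APR2 made up 6.90 ± 1.60% in Cvi in O3 and 44.9 ± 3.96% in Cvi in CA. In Sha its share was 31.1 ± 3.08% in O3 and 55.7 ± 7.17% in CA. APR1 stayed between 25.0 and 39.9% in every library. APR3 was thus the most abundant APR isoform per length in O3 and the least abundant in CA in both accessions, and APR2 was the most abundant in CA.

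Summed over the 3 genes, APR transcript was 1055, 1151 and 966 CPM in Cvi in O3, against 711, 649 and 607 CPM in Cvi in CA. In Sha it was 1029.8, 775 and 899 CPM in O3, against 1122, 1034 and 963 CPM in CA. The totals did not overlap between treatments in Cvi, and overlapped in Sha. Libraries of the same number were taken as paired in Sha, and there the O3 total was the lower in 3 of 3 pairs. The ratio of means was 1.61 in Cvi (exact permutation test, two-sided, p = 0.1, n = 3 each) and 0.867 in Sha (exact permutation test, p = 0.2, n = 3 each). The test took the libraries as unpaired, in Sha as well. With 3 libraries a side 0.1 is the smallest p this test can give. Over the 6 family totals tested the adjusted p was 0.2 in Cvi and 0.3 in Sha.

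**Figure D2:**
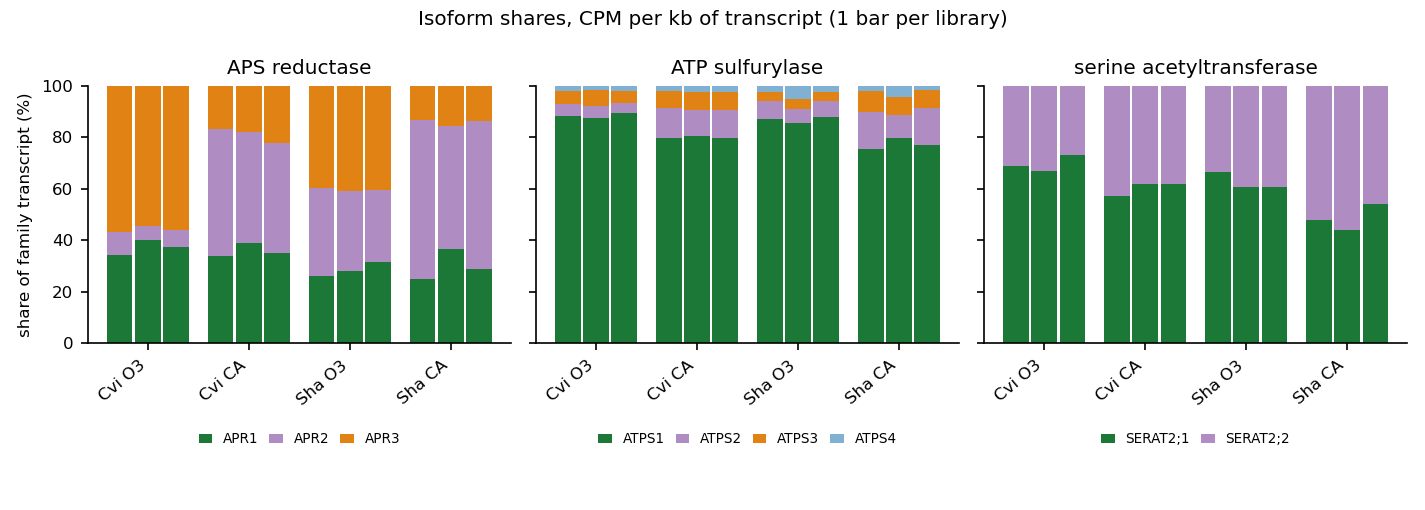
Share of each isoform (vertical axis, percent of the family's CPM per kb of transcript) in each of the 12 libraries (1 bar per library, grouped on the horizontal axis) for APS reductase, ATP sulfurylase and serine acetyltransferase. APR3 took 54.6 to 56.9% of APR transcript in Cvi in O3 and ATPS1 took 75.5 to 89.4% of ATPS transcript over the 12 libraries.

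Among the ATP sulfurylases, ATPS2 fell in both accessions. ATPS2 (AT1G19920, chr1:6914518-6916823), which in Arabidopsis is known to have both a plastid and a cytosolic form, had 67.1, 62.4 and 60.3 CPM in Cvi in O3, against 142, 141 and 139.5 CPM in Cvi in CA. In Sha it had 84.0, 60.3 and 73.5 CPM in O3, against 177, 131 and 154 CPM in CA. The treatments did not overlap in either accession. ATPS2 fell by 1.15 on the log2 scale in Cvi (SE 0.17, edgeR adjusted p = 1.01e-07) and by 1.08 in Sha (SE 0.17, edgeR adjusted p = 1.24e-06). It is the ATPS gene with no miR395 site among the sequences above.

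ATPS3 (AT4G14680, chr4:8413263-8415650), a plastid isoform with a miR395 site, fell in Sha. It had 69.3, 90.0 and 69.5 CPM in Cvi in O3, against 83.1, 94.8 and 84.6 CPM in Cvi in CA, with overlap. The Sha libraries had 43.3, 49.1 and 45.9 CPM in O3, against 101, 97.2 and 77.3 CPM in CA, without overlap. ATPS3 fell by 0.99 on the log2 scale in Sha (SE 0.17, edgeR adjusted p = 9.5e-06), a 1.99-fold decrease. In Cvi the log2 fold change was -0.20 ± 0.17 (SE, edgeR adjusted p = 0.520), with a 95% interval of -0.53 to 0.13.

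ATPS1 (AT3G22890, chr3:8112614-8115024) was the most abundant member per kb of transcript in all 4 groups, and ATPS4 (AT5G43780, chr5:17589394-17591737) was the least abundant. Both carry a miR395 site. ATPS1 had 1239.5, 1211 and 1303 CPM in Cvi in O3 and 968, 1091 and 988 CPM in Cvi in CA. Sha rosettes gave 1022, 1001 and 1029 CPM in O3 and 915, 1114 and 828 CPM in CA. Neither response was called, at log2 0.30 ± 0.17 in Cvi (SE, edgeR adjusted p = 0.308) and 0.10 ± 0.17 in Sha (SE, edgeR adjusted p = 0.861), although in Cvi all O3 libraries lay above all CA libraries. Without replicate 2 of Sha the ATPS1 value in Sha was 0.31 and not called (edgeR adjusted p = 0.320). With DESeq2 the ATPS1 response in Cvi was called (log2 0.39, adjusted p = 0.00679).

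ATPS4 had 28.3, 21.8 and 25.7 CPM in Cvi in O3 and 24.7, 31.7 and 31.2 CPM in Cvi in CA. In Sha it had 26.1, 58.0 and 25.1 CPM in O3 and 22.1, 60.0 and 16.9 CPM in CA. Replicate 2 of Sha was the highest of its group in both treatments and lay far from the other libraries. The ATPS4 log2 fold change was -0.21 ± 0.42 in Cvi and 0.14 ± 0.42 in Sha (SE, edgeR adjusted p = 0.752 and 0.911). In Sha it was 0.48 (edgeR adjusted p = 0.0989) when replicate 2 was left out in both treatments, 0.90 (edgeR adjusted p = 0.0372) when replicate 2 was left out in CA alone and -0.40 (edgeR adjusted p = 0.519) when it was left out in O3 alone.

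ATPS transcript summed to 1416 ± 38.3 CPM in Cvi in O3 and 1273 ± 75.1 CPM in Cvi in CA, and to 1173 ± 3.68 CPM in Sha in O3 and 1231 ± 163 CPM in Sha in CA (SD, n = 3). The exact permutation test gave p = 0.1 in Cvi and p = 0.7 in Sha (n = 3 each), or 0.2 and 0.7 after adjustment over the 6 totals. In Cvi the totals did not overlap, and 0.1 is the smallest p that 3 against 3 can give, so this test could not pass. ATPS1 held 88.5 ± 0.946% of ATPS transcript per length in Cvi in O3 and 79.9 ± 0.488% in Cvi in CA, and 86.9 ± 1.02% in Sha in O3 and 77.4 ± 2.07% in Sha in CA. The ATPS1 share was thus higher in every O3 library than in the CA libraries of the same accession.

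SIR (AT5G04590, chr5:1319074-1323364), the only sulfite reductase of the assimilatory pathway in Arabidopsis, had 423, 369.8 and 394 CPM in Cvi in O3, against 685, 698 and 686 CPM in Cvi in CA. The Sha libraries had 508, 476 and 555 CPM in O3, against 797, 743 and 645 CPM in CA. All O3 libraries were below all CA libraries in both accessions. SIR fell by 0.80 on the log2 scale in Cvi (SE 0.17, edgeR adjusted p = 0.000347). In Sha the log2 fold change was -0.51 ± 0.17 (SE, edgeR adjusted p = 0.0604) and did not pass. In Sha it did pass when no minimum change was asked for (edgeR likelihood-ratio test, adjusted p = 0.0072), with the quasi-likelihood test (edgeR adjusted p = 0.0211) and with DESeq2 (adjusted p = 2e-05), and it was -0.36 without replicate 2.

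SERAT2;1 (AT1G55920, chr1:20912116-20913565), the plastid serine acetyltransferase, rose in both accessions. It had 162, 165 and 194 CPM in Cvi in O3, against 87.4, 88.0 and 99.9 CPM in Cvi in CA. Sha rosettes gave 186, 97.6 and 165 CPM in O3, against 85.1, 73.1 and 90.1 CPM in CA. The treatments did not overlap, although replicate 2 of Sha in O3 lay close to its CA group. SERAT2;1 rose 1.89-fold in Cvi (log2 0.92 ± 0.22 SE, edgeR adjusted p = 0.000951) and 1.81-fold in Sha (log2 0.85 ± 0.22 SE, edgeR adjusted p = 0.00355). Without replicate 2 the log2 fold change in Sha was 1.08.

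SERAT2;2 (AT3G13110, chr3:4214399-4216302), the mitochondrial isoform that is known to provide most O-acetylserine in leaves, had 96.3, 108 and 94.1 CPM in Cvi in O3 and 86.0, 71.0 and 80.9 CPM in Cvi in CA. In Sha it had 122, 83.3 and 139.6 CPM in O3 and 121, 122 and 100.1 CPM in CA. The treatments overlapped in Sha, and in Cvi all O3 libraries were above all CA libraries. The log2 fold change was 0.33 ± 0.20 in Cvi and 0.01 ± 0.20 in Sha (SE, edgeR adjusted p = 0.292 and 1.0). Replicate 2 was the lowest of the Sha O3 libraries, and without it in both treatments the SERAT2;2 value in Sha was 0.33 and not called (edgeR adjusted p = 0.303). With DESeq2 the response in Cvi was called (log2 0.41, adjusted p = 0.0426). SERAT2;2 shares 132 bases on the same strand with AT3G13100, which had 99.5 CPM in Cvi in O3 and 5.45 CPM in Cvi in CA and 38.7 CPM in Sha in O3 and 11.0 CPM in Sha in CA, and the part of these reads in the SERAT2;2 values was not tested.

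The share of SERAT2;1 within the pair was 69.6 ± 3.13% in Cvi in O3 and 60.3 ± 2.74% in Cvi in CA, and 62.7 ± 3.397% in Sha in O3 and 48.7 ± 5.07% in Sha in CA (SD, n = 3, per length). It was higher in every O3 library than in the CA libraries of its accession. The summed SERAT transcript was 273 ± 14.5 CPM in Cvi in O3 and 171 ± 11.1 CPM in Cvi in CA, without overlap. In Sha it was 308, 181 and 305 CPM in O3, against 206, 195 and 190.2 CPM in CA. The overlap in Sha came from replicate 2 in O3 alone, and the other O3 libraries were above all CA libraries. The log2 ratio of means in Sha was 0.43, and 0.64 without that library. The exact permutation test gave p = 0.1 in Cvi, the smallest it can give, and p = 0.4 in Sha (adjusted p = 0.2 and 0.48, n = 3 each).

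**Figure D3:**
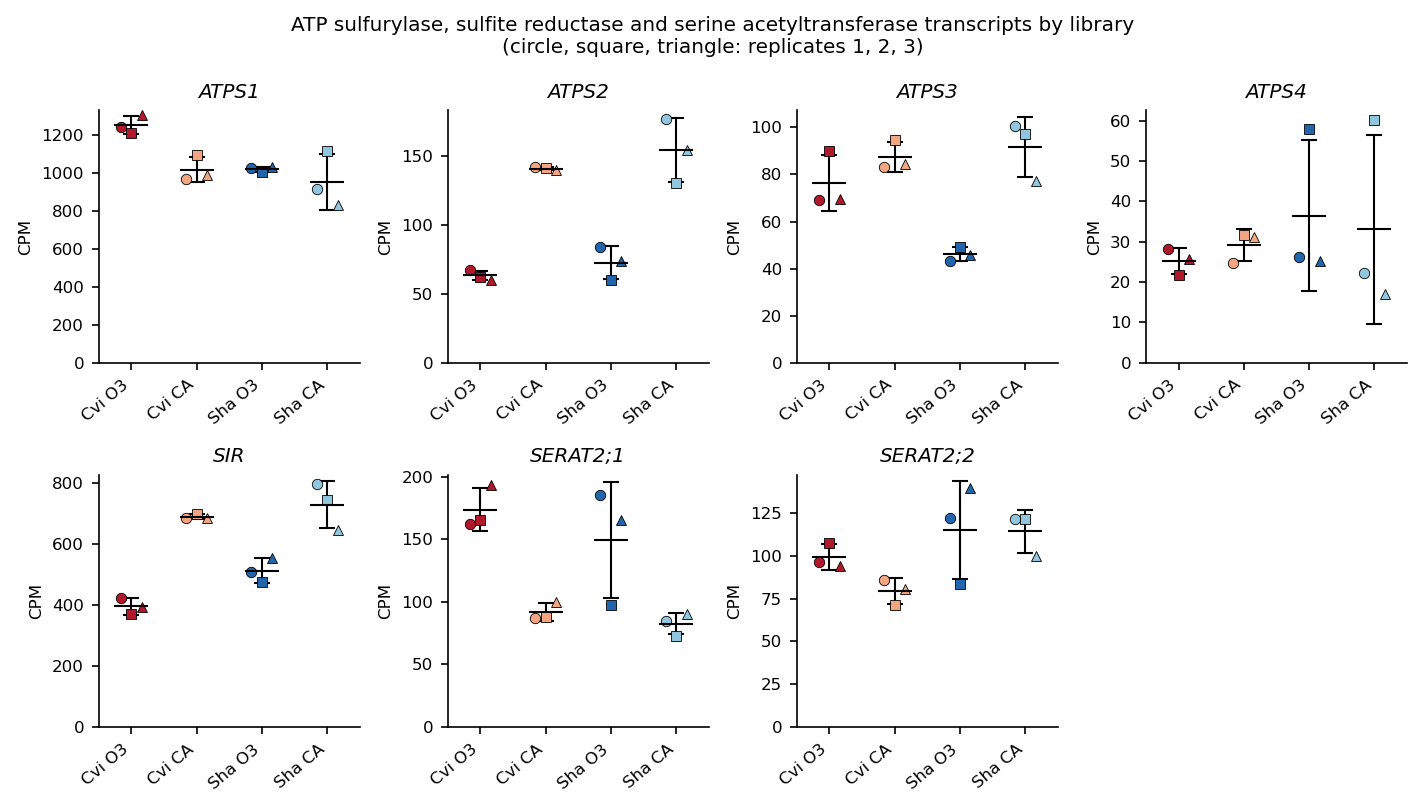
CPM (vertical axes, each from 0) of the ATPS genes, SIR and the SERAT genes in the 12 libraries by group (horizontal axes), with symbols for the 3 replicates and a line and bar for the mean and SD. ATPS2 and SIR were lower and SERAT2;1 higher in O3 in both accessions, and replicate 2 of Sha had 58.0 and 60.0 CPM of ATPS4 in O3 and CA.

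The second question was whether the accessions differed in their response. This was tested as the Cvi response minus the Sha response, in the same edgeR model. APR1, APR3 and ATPS3 differed, all with a positive difference, and 3 of 10 members were called against 8.93% of all genes (6.33% higher and 2.6% lower). After the filter on low counts, 1912 of 21321 genes were called higher and 769 lower. The difference was 1.05 ± 0.28 for APR1 (SE, edgeR adjusted p = 0.0110), 0.97 ± 0.25 for APR3 (SE, edgeR adjusted p = 0.00777) and 0.79 ± 0.24 for ATPS3 (SE, edgeR adjusted p = 0.0420). APR3 therefore rose more in Cvi. APR1 rose in Cvi and was not called in Sha, and ATPS3 fell in Sha and was not called in Cvi. The APR3 difference stayed called when each library was left out in turn. The APR1 difference was not called without replicate 3 of Cvi in CA (0.99, edgeR adjusted p = 0.051) or replicate 2 of Cvi in O3 (0.93, edgeR adjusted p = 0.0556), and was called without any other single library. Without replicate 2 of Sha in both treatments the APR1 difference was 0.76 (edgeR adjusted p = 0.0331) and the APR3 difference 0.79 (edgeR adjusted p = 0.0165). The ATPS3 difference lost its call when any one of 8 libraries was left out, namely replicates 1 and 2 of Sha in CA, 1 and 3 of Sha in O3, 1, 2 and 3 of Cvi in CA, and 2 of Cvi in O3. Its adjusted p was then between 0.0515 and 0.151 (edgeR) and the value between 0.66 and 0.85. Without TMM it was 0.61 and not called (edgeR adjusted p = 0.191). The ATPS3 difference was called under 11 of 21 alternatives.

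The difference for APR2 was -0.96 ± 0.33 (SE, edgeR adjusted p = 0.0679), with a 95% interval of -1.60 to -0.32, and was not called. With the replicate number as a block it was -0.96 and called (edgeR adjusted p = 0.00237), which brought the members called to 4. Same-numbered libraries of Sha in O3 and CA correlated in their deviations, most strongly for replicate 2, while those of Cvi did not. Without replicate 2 of Sha the APR2 difference was -0.98 and called (edgeR adjusted p = 0.0247). It was also called without a minimum change (edgeR adjusted p = 0.0337), with DESeq2 (adjusted p = 0.0213), without TMM (edgeR adjusted p = 0.00996), after the filter on low counts (edgeR adjusted p = 0.0394) and when any one of 4 libraries was left out, which makes 10 of 21 alternatives.

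For the other members the difference was not called. It was 0.07 ± 0.31 for SERAT2;1 with a 95% interval of -0.55 to 0.68, -0.07 ± 0.25 for ATPS2 with an interval of -0.55 to 0.41, and -0.30 ± 0.23 for SIR with an interval of -0.75 to 0.16 (SE). For ATPS1 it was 0.21 ± 0.24, for SERAT2;2 0.31 ± 0.28 and for ATPS4 -0.35 ± 0.59 (SE). Without replicate 2 of Sha these were 0.042 for ATPS1, 0.054 for SERAT2;2 and -0.64 for ATPS4, and none was called. Each of the 3 intervals given holds changes larger than 1.2-fold.

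**Figure D4:**
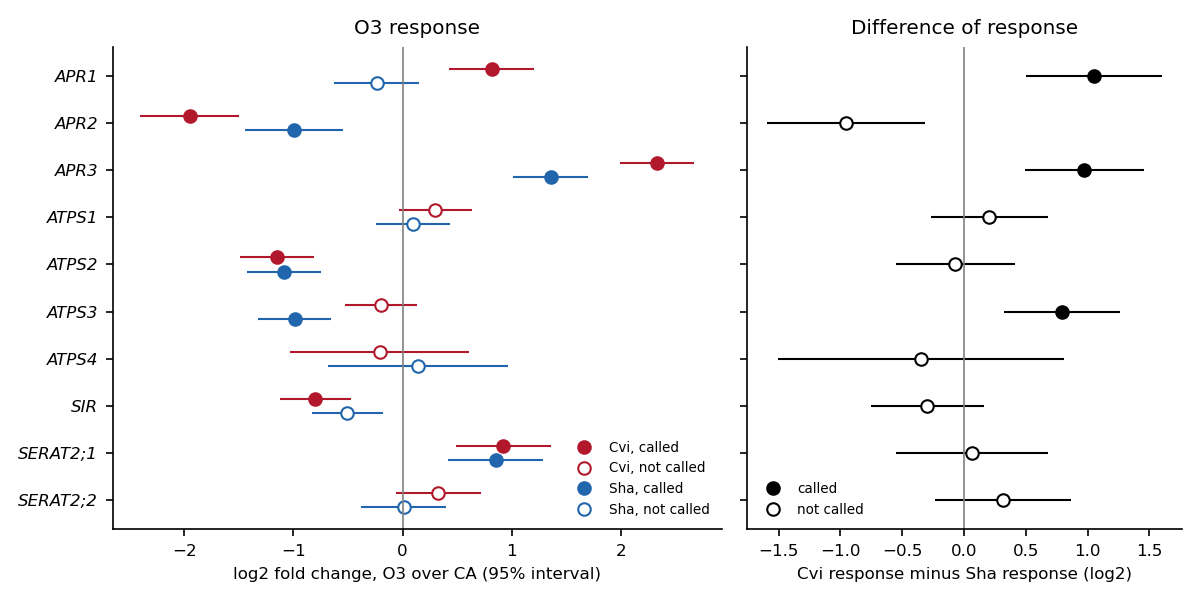
Left, log2 fold change of O3 over CA (horizontal axis) with its 95% interval for each of the 10 members (vertical axis) in Cvi (red) and Sha (blue). Right, the Cvi response minus the Sha response with its 95% interval. Filled points passed the edgeR test, and in the right panel these are APR1, APR3 and ATPS3.

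The third question was how the levels of these transcripts differed between Cvi and Sha within each treatment. These comparisons use the same libraries as the responses and are no separate evidence. In CA the accessions differed for APR2, which averaged 309 ± 50.4 CPM in Cvi and 601 ± 103 CPM in Sha (SD, n = 3) and was 1.94-fold lower in Cvi (log2 -0.96 ± 0.23 SE, edgeR adjusted p = 0.00253). That is 1 of 10 members called, against 18.1% of all genes (8.84% higher and 9.28% lower). SERAT2;2 averaged 79.3 ± 7.62 CPM in Cvi and 114 ± 12.3 CPM in Sha in CA, with no overlap between libraries, but was not called (log2 -0.53, edgeR adjusted p = 0.126). It was called without a minimum change (edgeR likelihood-ratio test, adjusted p = 0.0378), with DESeq2 (adjusted p = 0.0122), without TMM (edgeR adjusted p = 0.0213) and after a filter on low counts (edgeR adjusted p = 0.0433). The ATPS4 difference in CA was -0.18 ± 0.42 (SE, edgeR adjusted p = 0.896), and without replicate 2 of Sha it was 0.59 and called (edgeR adjusted p = 0.038), which brought the members called to 2.

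In O3, 4 of 10 members differed between the accessions, against 32.4% of all genes. Of them 3 were higher and 1 lower in Cvi, where 18.5% of all genes were higher and 13.9% lower. APR2 averaged 80.03 ± 17.6 CPM in Cvi and 302 ± 64.6 CPM in Sha, a 3.77-fold lower level in Cvi (log2 -1.92 ± 0.23 SE, edgeR adjusted p = 3.45e-12). APR3 averaged 567 ± 42.5 CPM in Cvi and 339.8 ± 43.6 CPM in Sha (log2 0.74 ± 0.17 SE, edgeR adjusted p = 0.00323). APR1 averaged 411 ± 58.8 CPM in Cvi and 259 ± 34.8 CPM in Sha (log2 0.66 ± 0.20 SE, edgeR adjusted p = 0.0214). ATPS3 averaged 76.2 ± 11.9 CPM in Cvi and 46.1 ± 2.92 CPM in Sha (log2 0.73 ± 0.17 SE, edgeR adjusted p = 0.00336). The libraries of the accessions did not overlap for any of these 4 genes. APR1 lost its call (edgeR adjusted p = 0.0501 to 0.11, log2 0.54 to 0.62) without replicate 3 of Sha in CA, replicates 1 or 2 of Sha in O3, or replicate 2 of Cvi in O3. With DESeq2, ATPS1 (log2 0.33, adjusted p = 0.0283) and SIR (log2 -0.34, adjusted p = 0.00489) were called as well. With total counts in place of TMM the differences of APR1, APR3 and ATPS3 in O3 were 0.36, 0.43 and 0.41 and were not called, while APR2 stayed called. The median of all genes was then -0.182, against 0.04 with TMM. All libraries were counted against Col-0 transcripts, so a sequence difference of Cvi or Sha from that reference and a difference in level cannot be told apart here.

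Levels of different members were compared per kb of the longest annotated transcript, and the ranks depend on that length. It was 3325 bases for SIR and 1785 for APR3, whose longest coding sequences were 1929 and 1377 bases. Ranks by another length were not computed. In CA, ATPS1 led with 533 ± 34.7 CPM per kb in Cvi and 500.0 ± 76.9 in Sha (SD, n = 3). SIR had 207 ± 2.27 CPM per kb in Cvi in CA and 219 ± 23.3 in Sha in CA. APR2 had 151 ± 24.6 CPM per kb in Cvi in CA and 293 ± 50.2 in Sha in CA, so it came after SIR in Cvi and before it in Sha. APR1 was the fourth in both, with 121 ± 10.2 CPM per kb in Cvi in CA and 158 ± 30.5 in Sha in CA. In O3 the second place went to APR3, with 318 ± 23.8 CPM per kb in Cvi and 190.4 ± 24.4 in Sha, behind ATPS1 with 657 ± 24.8 in Cvi and 534 ± 7.66 in Sha. APR2 was eighth of the 10 in Cvi in O3, at 39.1 ± 8.61 CPM per kb, beside ATPS3 at 39.3 ± 6.12. In Sha in O3 APR2 was the fourth, at 147 ± 31.5, next to SIR at 154 ± 12.0 and APR1 at 134 ± 18.0. The SD ranges of these neighbours overlapped. The genes were measured in the same libraries, so these SDs are not the spread of a difference between genes, which was not tested.

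The isoforms are similar in sequence, which bears on how reads were shared among them. By blastn the APR1 and APR3 transcripts were 79.4% identical over 1514 bases, APR2 and APR3 76.9% over 1173 bases, and APR1 and APR2 75.7% over 1247 bases. ATPS1 and ATPS3 were 81.8% identical over 1273 bases, and SERAT2;1 and SERAT2;2 78.2% over 809 bases. Short overlaps with neighbouring genes on the opposite strand were annotated for APR1, APR3, ATPS2, ATPS3, ATPS4 and SERAT2;1, at 16 to 162 bases. ATPS1 and SIR had none.

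The surrounding pathway was described with 4 lists. Of the sulfate transporters, 11 of 12 had counts. In Cvi 3 rose and 5 fell, in Sha 4 rose and 2 fell, and 2 had a lower response in Cvi. Over all genes 24.3% rose and 23.2% fell in Cvi, 17.9% rose and 16.6% fell in Sha, and 2.6% had a called lower response in Cvi. The median log2 fold change was -0.30 in Cvi and -0.16 in Sha, against 0.0 over all genes in each. Some of these genes were near the floor. The Cvi median was the value of SULTR3;2, at 0.394 CPM in Cvi in O3 and 0.495 CPM in Cvi in CA. SULTR1;3, among those that fell in Cvi, had 0.139 CPM in O3 and 0.632 CPM in CA there. SULTR3;3, a member of the sulfate transporter family, averaged 178 ± 4.47 CPM in Cvi in O3 and 42.5 ± 5.17 CPM in Cvi in CA, and 194 ± 11.6 CPM in Sha in O3 and 41.0 ± 10.005 CPM in Sha in CA (log2 2.06 in Cvi and 2.24 in Sha, edgeR adjusted p = 1.1e-20 and 1.1e-23). SULTR4;2, which exports sulfate from the vacuole, averaged 3.97 ± 0.876 CPM in Cvi in O3 and 20.1 ± 1.47 CPM in Cvi in CA, and 7.33 ± 2.29 CPM in Sha in O3 and 21.2 ± 1.17 CPM in Sha in CA (log2 -2.34 and -1.53, edgeR adjusted p = 8.55e-20 and 8.25e-09). SULTR4;2 is 85.0% identical to SULTR4;1 over 1841 bases and overlaps other genes, so its counts are less certain.

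SULTR3;1, a chloroplast sulfate transporter, had the largest called difference of response among the transporters. It averaged 22.3 ± 4.33 CPM in Cvi in O3 and 80.8 ± 28.1 CPM in Cvi in CA, and 38.1 ± 9.45 CPM in Sha in O3 and 57.1 ± 18.3 CPM in Sha in CA (difference -1.27 ± 0.42 SE, edgeR adjusted p = 0.0489). SULTR2;1, the vascular transporter whose transcript carries the miR395 site shown above, had 174, 165 and 192 CPM in Cvi in O3, against 384, 366 and 342 CPM in Cvi in CA. The Sha libraries had 119.7, 139 and 99.6 CPM in O3 and 154, 175 and 143 CPM in CA. SULTR2;1 fell by 1.04 on the log2 scale in Cvi (edgeR adjusted p = 3.47e-06), and in Sha the log2 fold change was -0.40 (edgeR adjusted p = 0.194), although all O3 libraries were below all CA libraries. The difference of -0.64 was not called (edgeR adjusted p = 0.160). The 4 transcripts with a miR395 site thus differed in what passed the test. SULTR2;1 fell in Cvi, ATPS3 fell in Sha, and ATPS1 and ATPS4 were called in neither.

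Of 12 other genes of cysteine and glutathione synthesis, 3 rose and 5 fell in Cvi, 1 rose and 7 fell in Sha, and 2 had a lower response in Cvi. The shares of all genes were 24.3% up and 23.2% down in Cvi and 17.9% up and 16.6% down in Sha. A called lower response in Cvi was found for 2.6% of all genes. The median log2 fold change was -0.46 in Cvi and -0.64 in Sha. GSH2, the glutathione synthetase, had 250.2, 236 and 278 CPM in Cvi in O3, against 109, 134 and 141 CPM in Cvi in CA, and 159, 152 and 205 CPM in Sha in O3, against 73.8, 81.4 and 80.3 CPM in Sha in CA. It rose in both without overlap (log2 0.99 in Cvi and 1.13 in Sha, edgeR adjusted p = 1.28e-05 and 6.61e-07). GSH1, which makes the precursor γ-glutamylcysteine, was called in neither, at log2 -0.09 in Cvi and -0.03 in Sha. GSH1 was added after its values had been seen.

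DES1, a cytosolic enzyme that degrades cysteine to sulfide, had the largest decrease of all listed genes in Cvi. It had 2.33, 0.892 and 1.81 CPM in Cvi in O3, against 56.7, 58.8 and 62.5 CPM in Cvi in CA. Sha rosettes gave 9.74, 15.6 and 6.98 CPM in O3, against 37.5, 41.0 and 39.9 CPM in CA. DES1 fell by 5.13 on the log2 scale in Cvi (edgeR adjusted p = 6.11e-49) and by 1.88 in Sha (edgeR adjusted p = 6.45e-09), and the difference was -3.26 ± 0.41 (SE, edgeR adjusted p = 1.02e-11). Its neighbour CYSD2 is 85.7% identical to it over 762 bases. SERAT3;2, a further serine acetyltransferase, stood at 0.827 ± 0.272 CPM in Cvi in O3 and 4.66 ± 0.661 CPM in Cvi in CA, and at 0.967 ± 0.720 CPM in Sha in O3 and 3.86 ± 1.69 CPM in Sha in CA (SD, n = 3).

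The branch from APS to PAPS and sulfation was described with 9 genes. Of these, 1 rose and 5 fell in Cvi and 1 rose and 6 fell in Sha. Over all genes 24.3% rose and 23.2% fell in Cvi, and 17.9% rose and 16.6% fell in Sha. The median log2 fold change was -0.62 in Cvi and -0.85 in Sha. A called higher response in Cvi was found for 2 of the 9 genes, against 6.33% of all genes. APK2, an APS kinase that competes with APS reductase for APS, was 1 of them, the other being SOT16. It had 445, 388 and 451 CPM in Cvi in O3, against 299, 326 and 268 CPM in Cvi in CA, and 190.4, 196 and 232 CPM in Sha in O3, against 325, 431 and 292 CPM in Sha in CA. APK2 fell by 0.76 on the log2 scale in Sha (edgeR adjusted p = 0.00416), was at 0.52 in Cvi (edgeR adjusted p = 0.0573) and differed by 1.29 ± 0.27 (SE, edgeR adjusted p = 0.000522). SOT16, the sulfotransferase of indolic glucosinolates, averaged 272 ± 14.4 CPM in Cvi in O3 and 68.6 ± 8.79 CPM in Cvi in CA, and 205 ± 60.1 CPM in Sha in O3 and 126 ± 2.74 CPM in Sha in CA (log2 1.99 and 0.70, edgeR adjusted p = 6.31e-16 and 0.0161). SOT18, a sulfotransferase of aliphatic glucosinolates, averaged 41.2 ± 2.82 CPM in Cvi in O3 and 197 ± 33.6 CPM in Cvi in CA, and 70.6 ± 3.85 CPM in Sha in O3 and 203 ± 48.1 CPM in Sha in CA (log2 -2.26 and -1.52, edgeR adjusted p = 1.32e-22 and 2.11e-10).

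Of 15 regulators and markers of sulfur limitation, 5 rose and 5 fell in Cvi and 4 rose and 4 fell in Sha, against 47.5% of all genes called in Cvi and 34.5% in Sha. The median log2 fold change was -0.20 in Cvi and 0.21 in Sha. MYB51, a regulator of indolic glucosinolate genes, averaged 87.2 ± 23.9 CPM in Cvi in O3 and 3.88 ± 1.63 CPM in Cvi in CA, and 119 ± 53.2 CPM in Sha in O3 and 6.12 ± 1.11 CPM in Sha in CA (log2 4.496 and 4.27, edgeR adjusted p = 9.34e-26 and 2.48e-23). MYB29, a regulator of aliphatic glucosinolate genes, averaged 11.2 ± 2.15 CPM in Cvi in O3 and 88.7 ± 15.997 CPM in Cvi in CA, and 11.2 ± 2.84 CPM in Sha in O3 and 77.6 ± 12.3 CPM in Sha in CA (log2 -2.99 and -2.79, edgeR adjusted p = 5.44e-31 and 1.91e-26). MYB28, which acts on the same genes, fell more in Cvi, at 25.4 ± 3.07 CPM in Cvi in O3 and 198 ± 14.1 CPM in Cvi in CA, and 72.7 ± 12.1 CPM in Sha in O3 and 202 ± 34.9 CPM in Sha in CA (difference -1.49 ± 0.27 SE, edgeR adjusted p = 2.31e-05).

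**Figure D5:**
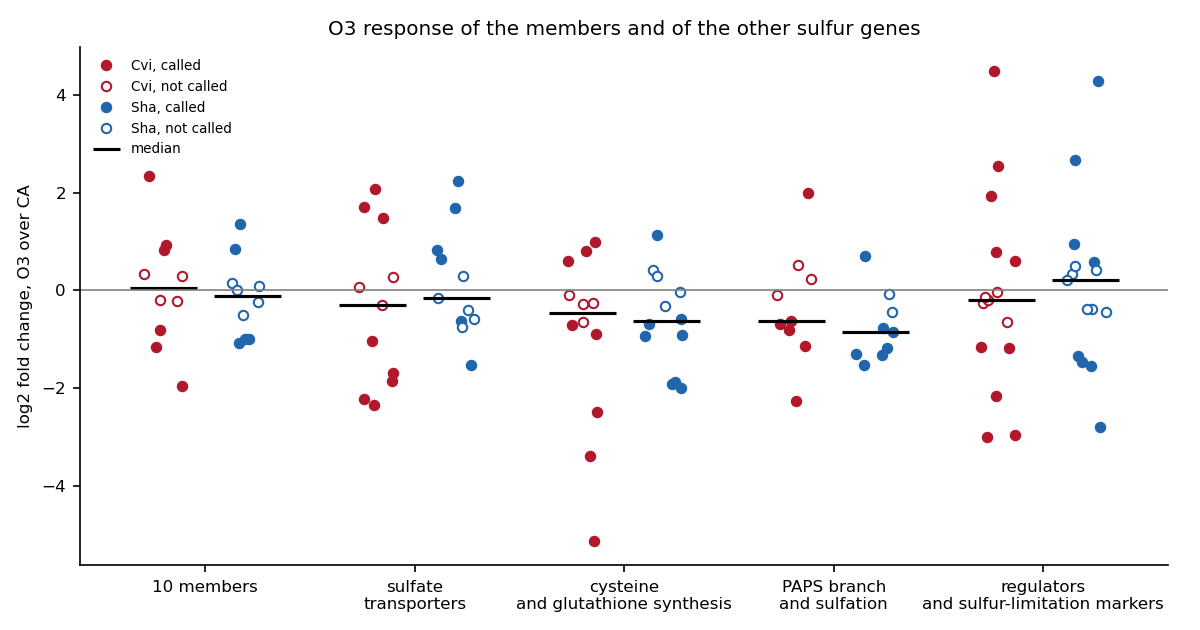
Log2 fold change of O3 over CA (vertical axis) for the 10 members and the genes of 4 lists (horizontal axis) in Cvi (red) and Sha (blue), with filled points for genes that passed the edgeR test and a line at each median. Members went both ways in each accession, and DES1 at -5.13 in Cvi and MYB51 at 4.496 in Cvi were the extremes.

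The mean log2(CPM + 1) of the 3 APR genes was compared with 12522 genes of at least 10 CPM on average over the 12 libraries. The 5 genes most like it by Pearson correlation were NAC083 (r = 0.902), AT1G58848 (r = 0.899), EBS3 (r = 0.889), GUS3 (r = 0.881) and AT3G22750 (r = 0.875). The 12 libraries share accession and treatment, so these values are a description. APR2 fell in O3 while APR3 rose, so likeness to their mean is not likeness to any single APR gene. All 5 genes were called higher in O3 in Cvi, and none was called in Sha. In CA all 5 were called lower in Cvi than in Sha. The genes were picked for likeness over these same 12 libraries, so such calls follow from the choice and are no separate evidence. The mean itself ranged from 7.60 in a Cvi CA library to 8.41 in a Sha O3 library, and NAC083 averaged 98.0 ± 10.5 CPM in Cvi in O3 and 64.8 ± 2.90 CPM in Cvi in CA, and 118 ± 8.03 CPM in Sha in O3 and 103 ± 2.29 CPM in Sha in CA (SD, n = 3).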

How the data were processed

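Per gene, the deposited file gives estimated counts that the authors obtained with FastQC, Trimmomatic 0.33 and kallisto on the Col-0-based AtRTD2 transcripts, averaged over repeated runs and not normalised. How transcripts were summed and whether strand was used is not given in the sources used here. Of its values, 69.42% were not whole and were rounded. Another 6 columns belong to no sample analysed here. Of 34212 rows, 5663 had no count and 28549 genes were tested.

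Differential expression used edgeR 4.0.16 in R 4.3.3 with TMM, a negative binomial fit to the 12 libraries in which each group had its own mean, and a likelihood-ratio test against a 1.2-fold change (glmTreat), with Benjamini-Hochberg adjustment. Alternatives used other edgeR tests, DESeq2 1.42.0, other scalings and filters, and fits without each library. blastn 2.17.0 compared transcripts.

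The labels give the 4 groups the same replicate numbers. Deviations from the group means of same-numbered libraries correlated at 0.455 to 0.626 between Sha in O3 and Sha in CA, and at 0.270 to 0.487 between Cvi in CA and Sha in CA. Libraries of different number correlated at -0.506 to 0.276 and at -0.491 to 0.215 in these comparisons. The numbers were therefore taken to pair libraries there, on the evidence of the data alone. The main edgeR model and the exact permutation tests did not use this pairing. The replicate number as a block was an alternative. The highest of these correlations were those of number 2, and pairing of numbers 1 and 3 is less clear. Same-numbered libraries correlated at -0.121 to 0.135 between Cvi in O3 and Cvi in CA, and at -0.175 to 0.038 between the O3 groups.

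Members and lists were chosen with earlier results of these data known. All members were named. From each list the called gene with the largest increase and decrease in each accession (at least 1 CPM on average) and the largest called difference were named, with SULTR2;1 and the 5 genes most like the APR mean. ATPS1 to ATPS4 are APS1 to APS4 in RefSeq. Fits without replicate 2 of Sha in both treatments were added after the data had been seen. Precision is limited by 3 libraries per group, and standard errors (SE) come from the fitted model.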

Additional observations from a re-analysis of the deposited data

Results flagged for a closer look

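The O3 response differed between the accessions for 3 members, by a test of the difference itself in edgeR (Cvi response minus Sha response, log2). The difference was 1.05 for APR1, which rose in Cvi and was not called in Sha. It was 0.97 for APR3, which rose in both accessions and more in Cvi. It was 0.79 for ATPS3, which fell in Sha and was not called in Cvi. Of 21 alternatives, the difference was called under 20 for APR3, 18 for APR1 and 11 for ATPS3. The APR2 difference of -0.96 was not called in the main test but was called under 10 of 21 alternatives, so ATPS3 and APR2 are similarly uncertain. No cause was tested for any of these differences. Leaf marker sums were lower in O3 than in CA in both accessions, as given above, and their part in these differences was not tested.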

How the results depend on the processing

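Of the 50 member results (10 members in 5 contrasts), 39 kept their sign under every alternative, and 23 of the 24 sign changes were of values not called under the alternative. With a minimum log2 change of 1.2, the members called numbered 0 for the response in Sha, 2 for that in Cvi, 0 for the difference, 0 between accessions in CA and 1 in O3. Over all genes this threshold called 2075 up and 880 down in Sha, 3773 and 1551 in Cvi, 464 and 66 for the difference, 963 and 990 in CA, and 1774 and 974 in O3. Between accessions in CA, 2 members were called without a minimum change, with DESeq2, without TMM, with filterByExpr and without replicate 2 of Sha, and in O3 2 (APR2 and SIR) without TMM. Over all genes in CA, 3297 were called up and 3414 down without a minimum change, and 3018 and 3519 with DESeq2. The counts were 2066 and 3350 without TMM, 2035 and 2800 with filterByExpr, and 2714 and 2916 without replicate 2 of Sha. The main test in CA called 2523 and 2649. In O3 the counts were 3712 and 6732 without TMM, against 5285 and 3958 with it. Without TMM the share of called genes that were higher was 54.04% for the difference, 38.15% in CA and 35.54% in O3, against 70.88%, 48.78% and 57.18% with TMM, and the median of all genes was -0.142, -0.0806 and -0.182. Without TMM, SERAT2;1 had a difference of -0.088 and was -0.070 in O3, and ATPS1 was -0.041 in CA and -0.015 in O3. Without replicate 2 of Sha, APR1 in Sha was 0.11, the SERAT2;1 difference was -0.10, ATPS4 in CA 0.59 and SERAT2;1 in O3 -0.047. With the replicate number as a block, SERAT2;2 in Sha was -0.0012, and the block changed no member's call other than that of the APR2 difference. The cause of these changes was not tested.

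With each library left out in turn, members called ranged from 1 to 4 for the difference, 5 to 6 in Sha, 6 to 6 in Cvi, 1 to 1 in CA and 3 to 4 in O3. The difference count was 1 without replicate 3 of Cvi in CA or replicate 2 of Cvi in O3. Over all genes these fits called 1379 to 1868 up and 498 to 893 down for the difference. They called 4691 to 5477 up and 3834 to 5043 down in Sha, and 6332 to 7187 up and 5927 to 7432 down in Cvi. Between accessions they called 1819 to 2943 up and 2149 to 3044 down in CA, and 4398 to 5517 up and 3252 to 4311 down in O3. Values ranged from -0.40 to 0.90 for ATPS4 and from -0.069 to 0.16 for SERAT2;2 in Sha, from -0.20 to 0.035 for ATPS2, -1.11 to 0.15 for ATPS4 and -0.17 to 0.23 for SERAT2;1 in the difference, from -0.052 to 0.22 for ATPS1, -0.22 to 0.0062 for ATPS3 and -0.57 to 0.59 for ATPS4 in CA, and from -0.018 to 0.33 for SERAT2;1 in O3. The members had at least 244 counts in every library, and the part of depth in these results was not tested.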
